A study of Mus musculus with 8 samples.

Results

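The mitochondrial carrier genes were followed in brown adipose tissue (BAT) through the peak summits of an ATAC-seq list. Members were all autosomal genes with a curated RefSeq mRNA in mm10 whose symbol starts with Slc25a, which gave 43 genes of 20021 autosomal genes with such an mRNA. The uncoupling protein genes Ucp1, Ucp2 and Ucp3 belong to the same protein family but carry other symbols and were not members. The libraries came from 12-week-old mice on chow that spent 4 hr at 4°C before the tissue was taken. There were 2 WT mice, which the study describes as Dot1l f/f littermates, and 2 Dot1L-BKO mice, in which Ucp1-Cre deletes the floxed Dot1l allele in Ucp1+ cells, so that endothelial, immune and other cells without Ucp1 keep the gene. ATAC-seq marks open chromatin through the Tn5 transposase, which cuts DNA where nucleosomes do not cover it. The deposited file is a single list of 32173 summits drawn from all 4 libraries, and its name sets WT against Dot1L-BKO. Whether one genotype served as the control in peak calling is not given in the sources used here. If the Dot1L-BKO libraries did, a score would measure the excess of WT over Dot1L-BKO reads and not open chromatin as such, and a missing summit could stand for a region open alike in both, so that every summit and score below is to be read with this limit. Each summit, the highest point of a peak, has the −log10 of its MACS2 q-value, called the score here. The list holds no value for any library, so that depth is unknown, replicate error cannot be given, and no difference between WT and Dot1L-BKO mice is reported. In bulk tissue, fewer nuclei of a cell type and less open chromatin in each nucleus cannot be told apart.

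Mitochondrial carriers are small proteins of the inner mitochondrial membrane that exchange metabolites between the matrix and the cytosol. They move ADP and ATP, phosphate, citrate and other organic acids, amino acids, acylcarnitines, iron and the cofactors that matrix enzymes need. Brown fat is packed with mitochondria that oxidize fatty acids, glucose and amino acids. The heat it makes in the cold depends in part on fuel that enters through these carriers. Ucp1, which lets protons back into the matrix, is itself built like a carrier.

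The sequences around the summits that the results below turn on are shown first, from the GRCm38.p6 (mm10) reference and written 5′ to 3′ along the strand of the gene. Where a window would have run into an exon of a curated mRNA it was shortened, and for Slc25a4 and Slc25a20, whose summits lay in exon 1, the 101 bases just upstream of the transcription start site (TSS) are given instead. Capitals mark matches, on either strand, to short patterns of promoter factors, which are GGGCGG for SP/KLF, CCAAT for NF-Y, CCGGAAG for ETS, TGCGCA for the core of the NRF1 site, AAGATGGC for YY1, TGACGTCA for CREB and TCAAGGTCA for ERR. A match describes letters and does not show binding. Members with high promoter scores come first.
Slc25a42 (chr8:70212529-70212629, minus strand): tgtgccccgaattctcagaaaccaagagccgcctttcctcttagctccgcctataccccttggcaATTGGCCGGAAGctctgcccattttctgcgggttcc
Slc25a28 (chr19:43675093-43675193, minus strand): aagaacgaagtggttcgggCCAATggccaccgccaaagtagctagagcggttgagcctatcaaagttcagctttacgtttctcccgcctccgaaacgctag
Slc25a51 (chr4:45408863-45408963, minus strand): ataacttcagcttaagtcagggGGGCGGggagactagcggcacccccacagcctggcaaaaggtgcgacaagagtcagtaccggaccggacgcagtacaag
Slc25a3 (chr10:91123968-91124045, minus strand): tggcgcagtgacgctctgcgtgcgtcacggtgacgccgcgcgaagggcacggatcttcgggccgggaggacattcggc

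The second set holds the downstream one of the Slc25a25 promoters, the peroxisomal carrier gene Slc25a17, the start region shared by Slc25a32 and Dcaf13, and Slc25a34, whose promoter is nearly free of CpG. The upstream sequences of Slc25a4 and Slc25a20 are added because these carriers serve ATP exchange and fatty acid oxidation.
Slc25a25 (chr2:32424102-32424202, minus strand): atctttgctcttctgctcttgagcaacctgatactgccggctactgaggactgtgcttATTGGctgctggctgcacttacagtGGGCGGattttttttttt
Slc25a17 (chr15:81360766-81360844, minus strand): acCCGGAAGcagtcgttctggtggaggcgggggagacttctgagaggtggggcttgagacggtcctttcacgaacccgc
Slc25a32 (chr15:39112795-39112873, minus strand): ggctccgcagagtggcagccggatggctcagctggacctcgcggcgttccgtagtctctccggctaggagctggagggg
Slc25a34 (chr4:141623874-141623974, minus strand): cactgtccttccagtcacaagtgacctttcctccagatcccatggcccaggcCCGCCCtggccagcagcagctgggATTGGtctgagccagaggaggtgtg
Slc25a4 (chr8:46211063-46211163, minus strand): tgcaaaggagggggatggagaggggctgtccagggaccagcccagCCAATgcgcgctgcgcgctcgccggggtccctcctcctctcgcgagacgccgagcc
Slc25a20 (chr9:108662035-108662135, plus strand): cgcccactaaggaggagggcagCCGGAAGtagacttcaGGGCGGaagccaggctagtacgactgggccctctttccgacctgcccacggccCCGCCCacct

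The third set shows summits that lay more than 1 kb from a TSS, in intron 2 of Slc25a44, upstream of Slc25a39 and upstream of Slc25a54.
Slc25a44 (chr3:88418212-88418312, minus strand): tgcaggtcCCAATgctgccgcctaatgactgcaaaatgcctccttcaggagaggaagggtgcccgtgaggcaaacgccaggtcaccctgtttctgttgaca
Slc25a39 (chr11:102408570-102408670, minus strand): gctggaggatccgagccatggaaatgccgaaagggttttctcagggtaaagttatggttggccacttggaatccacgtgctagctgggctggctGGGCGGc
Slc25a54 (chr3:109076737-109076837, plus strand): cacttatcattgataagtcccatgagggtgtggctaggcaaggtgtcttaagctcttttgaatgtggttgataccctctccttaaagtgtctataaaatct

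Most carrier genes had a promoter summit, defined as a summit within 1 kb of a TSS. It was found at 32 of the 43 genes, or 74.4% (95% Wilson interval 59.8% to 85.1%, counting error only), where 46.8% of all autosomal genes had one. Within 10 kb of a TSS, 36 of 43 carrier genes (83.7%) had a summit, beside 55.8% of all genes. In the gene body the number was 27 (62.8%), beside 41.2%, and with either window or the body counted it was 38 (88.4%), beside 60.1%. No test was run over genes, which are not replicates, and the shares describe one list.

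**Figure D1:**
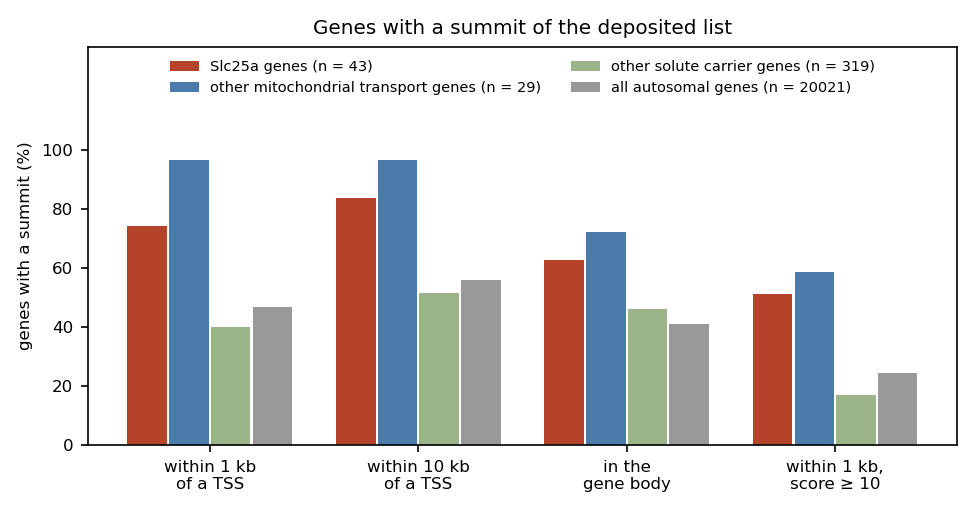
Bars give the percentage of genes with a summit within 1 kb and 10 kb of a TSS, in the gene body, and within 1 kb with a score of at least 10, for 43 Slc25a genes, 29 other mitochondrial transport genes, 319 other solute carrier genes and all 20021 autosomal genes. For the window of 1 kb the Slc25a genes stand at 74.4%, between the other mitochondrial transport genes at 96.6% and all genes at 46.8%.

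Set beside related genes, the Slc25a genes lay between mitochondrial and plasma membrane transport. Of 29 other mitochondrial transport genes, which include the Ucp genes, the porins Vdac1 to Vdac3, the pyruvate carrier subunits Mpc1 and Mpc2, the calcium uniporter genes and the sideroflexins, 28 (96.6%) had a promoter summit, and Micu2 alone had none. Of 319 solute carrier genes of other families, most of which act at the plasma membrane, 128 (40.1%) had one. Whether these shares differ was not tested. The tissue label fits the list in that all 8 brown adipocyte marker genes and all 5 general adipocyte genes had a promoter summit. Of 5 endothelial, 5 macrophage and leukocyte, 5 skeletal muscle, 4 neuron and 4 hepatocyte markers, a promoter summit was found at 1, 1, 0, 0 and 1. Beside these stands the share of 46.8% of all genes. The low counts do not separate cells that live in the tissue, such as endothelial cells, from those that do not, such as hepatocytes.

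Among carrier genes with a promoter summit, the highest score ran from 4.61 at Slc25a38 to 118 at Slc25a42, with a median of 11.7. The 95% binomial interval of this median was 9.78 to 27.7, and the median over the 9371 autosomal genes with a promoter summit was 10.9. Whether the medians differ was not tested, and the interval does not show that they are alike. There were 19 members above the median of all genes with a promoter summit, 13 at or below it, and 6 in the top 10% of those genes. A promoter score of at least 10 was reached by 22 of all 43 members (51.2%), beside 24.5% of all genes.

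**Figure D2:**
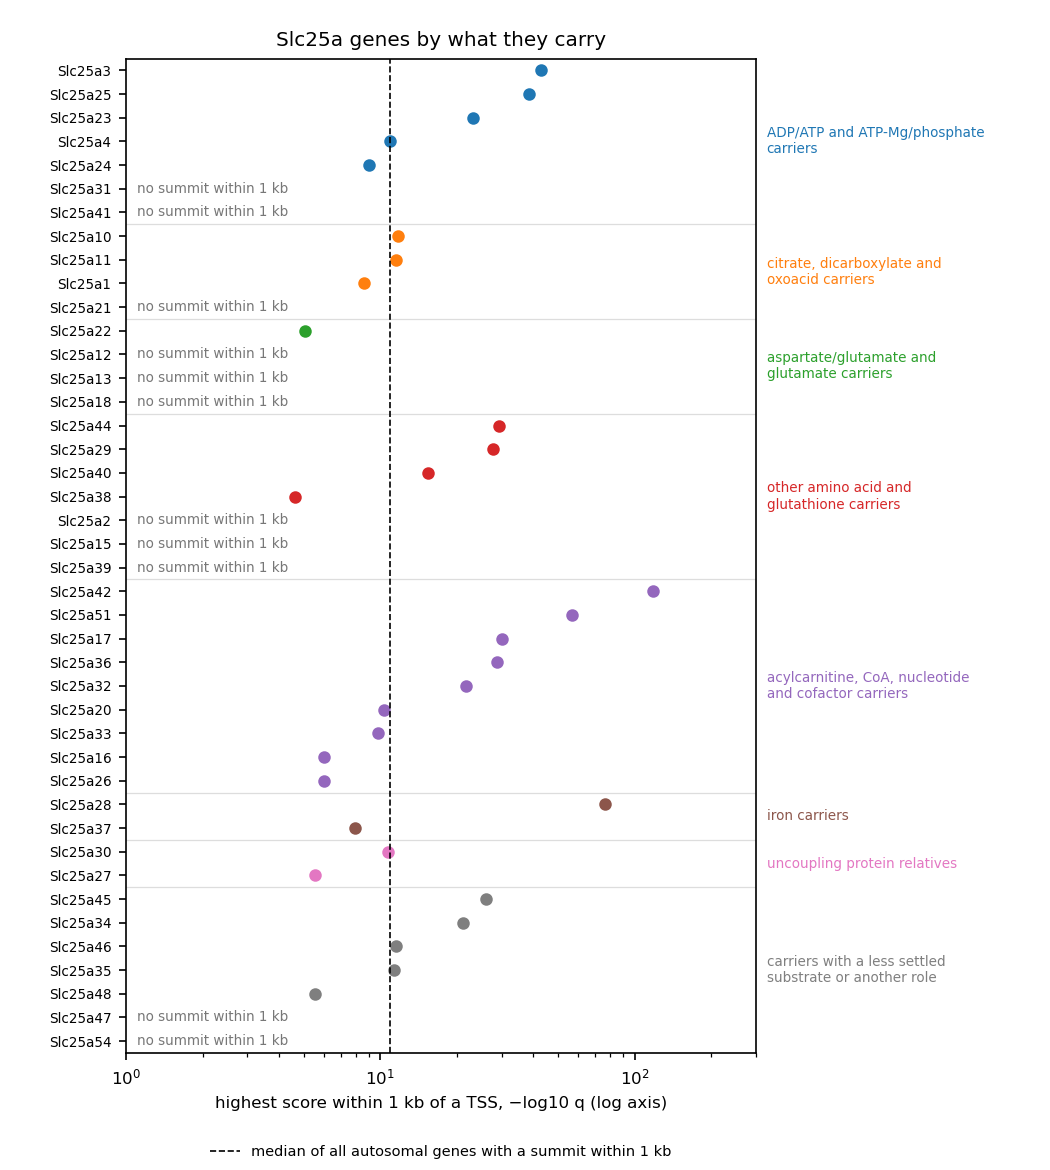
Each point is the highest score within 1 kb of a TSS of a named Slc25a gene on a log axis, the genes are grouped by what the carrier moves, and the dashed line is the median of all autosomal genes with a promoter summit (10.9). The plotted carriers of acylcarnitine, CoA, nucleotides and cofactors each have a point, from 6.02 to 118, whereas only Slc25a22 of the 4 aspartate and glutamate carriers has one.

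Carriers of acylcarnitine, CoA, nucleotides and cofactors all had a promoter summit, at 10 of 10 genes with a median score of 25.2. In this and the groups below, which hold 2 to 10 genes each, shares stand beside 46.8% of all genes and were not tested. Slc25a42, which brings coenzyme A into the matrix, had the highest promoter score of all members, 118 at position 70212579 on chromosome 8. This summit lay 298 bp upstream of the TSS and ranked 32 among the 32173 summits. Slc25a51, the mitochondrial NAD+ carrier, scored 56.9 at 147 bp upstream of its TSS, and 3 further summits with scores of 16.0, 10.4 and 19.1 lay 2651, 3856 and 5037 bp upstream. The carriers of CoA and NAD+ thus had the highest promoter scores of this group.

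Slc25a17, which carries cofactors into peroxisomes, scored 30.1 at 29 bp upstream of the TSS. The pyrimidine nucleotide carriers Slc25a36 and Slc25a33 scored 28.8 and 9.78, and the folate and FAD carrier Slc25a32 scored 21.6. Slc25a26, the S-adenosylmethionine carrier, and Slc25a16, which has been linked to CoA, both had 6.02. Slc25a20, the carnitine-acylcarnitine translocase through which long-chain fatty acids reach the matrix for oxidation, scored 10.4 at 84 bp downstream of the TSS on chromosome 9, in the 5′ UTR. Intron 1 of Slc25a20 held 2 more summits, with scores of 4.16 and 6.02 at 1047 and 1947 bp downstream. The fatty acid carrier therefore had a promoter score near the median of all genes with a promoter summit, below most cofactor carriers.

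Carriers of ADP, ATP and phosphate had a promoter summit at 5 of 7 genes (71.4%, beside 46.8% of all genes), with a median score of 23.1. Slc25a3, which supplies phosphate to ATP synthase, scored 42.8 at position 91123995 on chromosome 10, 28 bp upstream of the TSS, and had no other summit within 10 kb. Slc25a4, the ADP/ATP exchanger of heart and muscle also known as Ant1, scored 10.9 at 8 bp downstream of the TSS in the 5′ UTR, again without another summit. Both genes thus had a single summit in the window of 10 kb on each side, right at the TSS.

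Among the calcium-regulated ATP-Mg/phosphate carriers, Slc25a25 had summits at separate promoters of its isoforms. One scored 38.4 and lay 581 bp upstream of the distal TSS, and the other scored 36.7 and lay 86 bp upstream of an internal TSS, within intron 1 of a longer isoform. With the weaker ones there were 7 summits along Slc25a25. Slc25a23 scored 23.1 at 638 bp upstream of its TSS, and Slc25a24 scored 8.99 at 595 bp downstream in intron 1. Slc25a41 had no promoter summit, and neither had Slc25a31, the ADP/ATP exchanger of germ cells, which had no summit in the window of 10 kb or in the gene body.

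Carriers of citrate and other organic acids had a promoter summit at 3 of 4 genes, with scores close to each other. Slc25a10, the dicarboxylate carrier, had 11.8 at 50 bp downstream of the TSS in the 5′ UTR. Slc25a11, the oxoglutarate-malate exchanger of the malate-aspartate shuttle, had 11.5 at 236 bp downstream in the coding part of exon 1. Slc25a1, which exports citrate for lipid synthesis, had 8.65 at 195 bp upstream and 4.61 at 604 bp downstream in exon 2. Each of these 3 genes had 2 summits within 1 kb, and they had 10, 6 and 5 summits within 10 kb. Some of these were nearer to the TSS of another gene. The highest near Slc25a10, 18.8, lay 85 bp from the TSS of Mrpl12. Several near Slc25a11, including its promoter summit of 4.16, were nearest to Rnf167 or Pfn1. Slc25a21, the oxodicarboxylate carrier, had none in either window or in the gene body.

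Aspartate and glutamate carriers had the lowest share of genes with a promoter summit, 1 of 4. Slc25a12, the calcium-regulated aspartate-glutamate exchanger of muscle and brain and the partner of Slc25a11 in the malate-aspartate shuttle, had no summit within 10 kb of its TSS or anywhere in its 93486 bp on chromosome 2. Slc25a13, its liver form, had one weak summit with a score of 1.84 in intron 3, 46583 bp from the TSS. Slc25a18, a glutamate carrier, had 2 intronic summits with scores of 2.96 and 4.16, more than 10 kb from the TSS. So neither gene of the aspartate-glutamate exchanger had a promoter summit, whereas the gene of the oxoglutarate-malate exchanger had one.

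Slc25a22, the other glutamate carrier, had 13 summits within 10 kb, the most of any member, beside 11 at Slc25a34 and 10 at Slc25a10. Several of the 13 were nearer to the TSS of Cend1, Pidd1 or Rplp2 than to its own. Slc25a22 has 3 TSSs, which widens the area counted, and 5 of the 13 lay within 1 kb of one of them. The scores of these 5 were low, from 3.44 to 5.07. The highest score within 10 kb of Slc25a22, 30.9, lay 119 bp from the TSS of the ribosomal protein gene Rplp2.

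The other amino acid and glutathione carriers had a promoter summit at 4 of 7 genes. Slc25a44, which brings branched-chain amino acids into brown fat mitochondria, scored 29.3 at position 88424910 on chromosome 3, 231 bp downstream of the TSS in the 5′ UTR. A further summit in intron 2 of Slc25a44, at 88418262 and 6879 bp from the TSS, scored 23.1, and 3 weaker ones had scores of 6.53, 4.16 and 3.75. Slc25a29, a carrier of basic amino acids, scored 27.7 at 57 bp upstream, Slc25a40 scored 15.4, and Slc25a38, which supplies glycine for heme synthesis, scored 4.61 in intron 1. Branched-chain amino acid transport thus had the highest promoter score of this group, with a summit of similar score inside the gene.

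Slc25a39, which like Slc25a40 imports glutathione, missed the promoter window by little. Its nearest upstream summit scored 17.5 and lay 1103 bp upstream of the curated TSS. The next on the other side had 6.02 at 1445 bp downstream. Within the window, the summit farthest from a TSS was that of Slc25a34 at 942 bp downstream, with a score of 6.53. The ornithine carrier genes Slc25a2 and Slc25a15 had no promoter summit. The only summit within 10 kb of Slc25a2 scored 6.58 and lay 122 bp from the TSS of Taf7, and Slc25a15 had none in the window of 10 kb or in the gene body.

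Both iron carriers had a promoter summit, with scores that lay far apart. Slc25a28 (mitoferrin 2), the iron importer of most tissues, scored 76.7 at 262 bp upstream of the TSS on chromosome 19, rank 140, with a further summit of 6.02 at 540 bp downstream and others of 6.02 and 9.21 deeper in intron 1. Slc25a37 (mitoferrin 1), best known from red cell precursors, scored 7.92 at 30 bp upstream. The uncoupling protein relatives Slc25a30 and Slc25a27 scored 10.7 and 5.55 at 36 and 45 bp upstream, and neither had another summit within 10 kb or in the gene.

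Of the carriers with a less settled substrate or another role, 5 of 7 had a promoter summit (71.4%, beside 46.8% of all genes). Slc25a45 scored 26.1 at 563 bp downstream in the 5′ UTR, and Slc25a34 scored 21.1 at 90 bp upstream. Slc25a34 had 11 summits within 10 kb, and outside the one at 90 bp none scored over 6.53. Slc25a46, which acts in the outer membrane in mitochondrial dynamics, scored 11.5, Slc25a35 scored 11.3 and Slc25a48 scored 5.55. A summit of 17.4 lay 3966 bp upstream of Slc25a48. Slc25a47, a carrier known from liver, had no summit in the window of 10 kb or in the gene body.

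No summit was found in any of the windows or in the gene body for 5 members, Slc25a12, Slc25a15, Slc25a21, Slc25a31 and Slc25a47. For a further 2, Slc25a13 and Slc25a18, the summits were intronic and over 10 kb from a TSS. A missing summit means that no peak passed the cutoffs of this list, and does not show that the chromatin is closed.

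**Figure D3:**
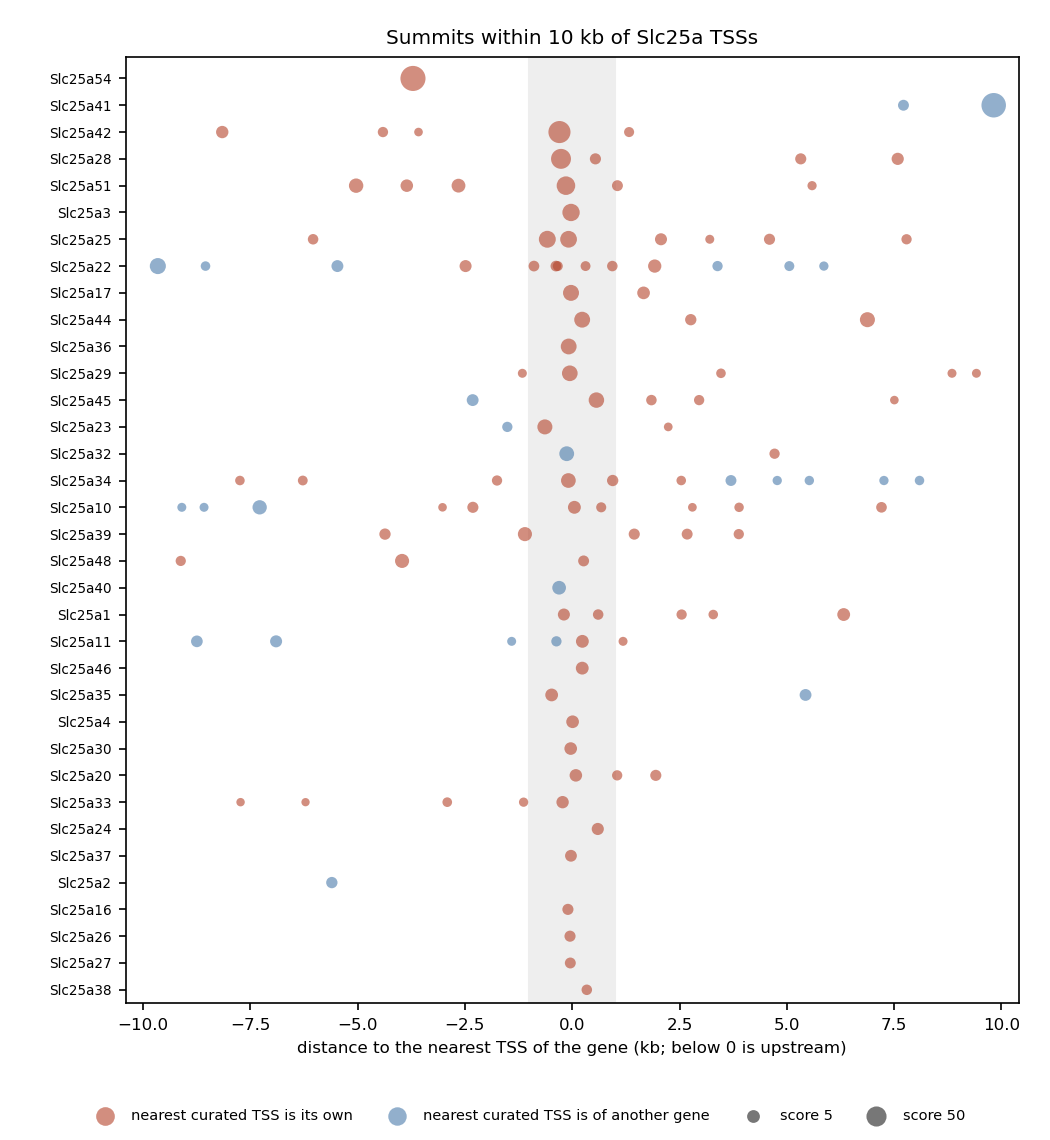
Each row is a named Slc25a gene with a summit within 10 kb of a TSS, ordered by highest score, and each circle is a summit at its distance from the nearest TSS of that gene in kb, with an area that grows with the score. Red circles are nearest to the TSS of the gene itself and blue ones to that of another gene, and the shaded band is the window of 1 kb, which holds the largest circles of most rows.

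In position, 42 summits lay within 1 kb of a carrier TSS, 83 from 1 to 10 kb and 11 farther away inside a gene. Those within 1 kb had a median score of 10.8, those from 1 to 10 kb of 4.16 and those farther inside genes of 3.75. Of the 42, 25 were upstream of the TSS and 17 downstream, and 14 (33.3%) were within 100 bp of it, beside 33.0% over all genes. By annotation, 21 of the 42 were outside the gene, 12 in introns, 6 in the 5′ UTR and 3 in coding exons. The 72 summits in gene bodies were mostly intronic (44), with 12 in coding exons, 9 in the 3′ UTR and 7 in the 5′ UTR.

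Carrier genes often had several summits around them. There were 3 or more within 10 kb of a TSS at 18 of 43 genes (41.9%), beside 15.4% of all genes. The same held for 11 of 29 other mitochondrial transport genes (37.9%) and 48 of 319 other solute carrier genes (15.0%). Of the 83 summits from 1 to 10 kb, 59 had the carrier gene itself as the nearest TSS and 24 that of another gene. Only 13 of the 83 reached a score of 10. For 28 members the highest summit in the windows or gene body was a promoter summit, and for 10 it lay farther away.

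A pair of distant summits had scores above every promoter score of the carrier genes. One, at position 57031832 on chromosome 17, scored 180 and lay 9822 bp downstream of the TSS of Slc25a41, beyond the end of the gene and 325 bp from the TSS of Khsrp, an RNA-binding protein gene. The other, at 109076787 on chromosome 3, scored 199 and lay 3712 bp upstream of Slc25a54. Within the 1001 bp around the summit near Slc25a54, a stretch of 262 bp was 82.8% identical to mitochondrial DNA, and no other of the 136 carrier summits had such a match. The part of mitochondrial reads in its score was not tested. Slc25a54 had no other summit, and without this one 35 members had a summit within 10 kb.

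Start regions shared with a neighbour were found at 4 members, each with a gene on the opposite strand whose TSS lay within 1 kb. They were Slc25a11 with Rnf167 at 196 bp, Slc25a27 with Cyp39a1 and Slc25a32 with Dcaf13 at 158 bp each, and Slc25a40 with Dbf4 at 122 bp. The summits of Slc25a32 and Slc25a40 were nearer to the TSS of the neighbour, at 29 and 184 bp, than to that of the carrier gene, at 129 and 306 bp. Slc25a11 had one summit on either side of its TSS, with 11.5 on its own side and 4.16 toward Rnf167. One list of summits cannot give such a summit to either gene.

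**Figure D4:**
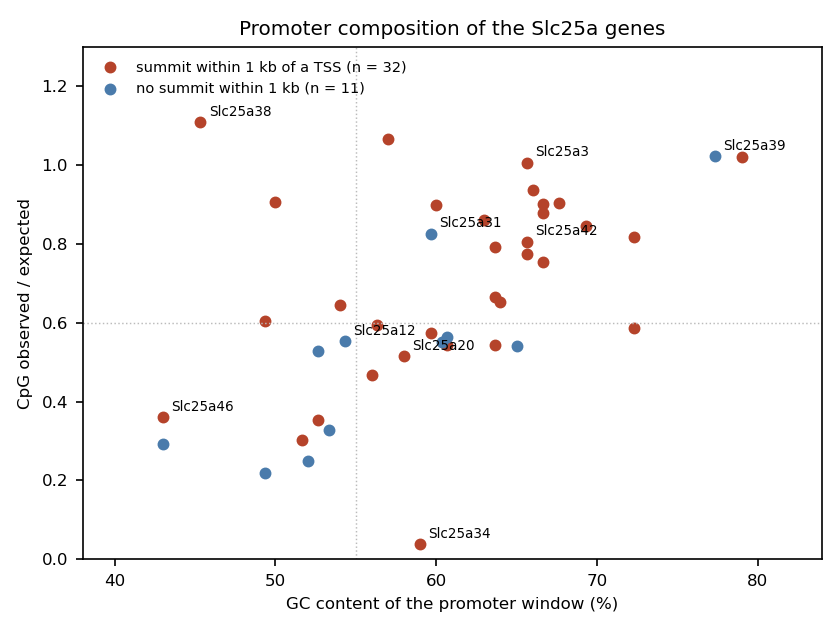
Each point is the promoter window of one Slc25a gene, with its GC content in percent and its ratio of observed to expected CpG, and dotted lines mark 55% and 0.6. Of the 19 CpG-rich windows at upper right 17 belong to genes with a promoter summit (red), and Slc25a39 and Slc25a31 (blue) are the others.

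The promoters of the carrier genes differed in base composition. In a window from 250 bp before to 50 bp after the most upstream TSS, GC content ran from 43.0% to 79.0% with a median of 60.3%, beside 57.0% over all genes. Windows with a GC content of at least 55% and a ratio of observed to expected CpG of at least 0.6 were called CpG-rich. Of the 19 CpG-rich carrier promoters 17 (89.5%) had a summit, beside 74.0% of the 8604 CpG-rich promoters of all genes. Of the 24 others 15 (62.5%) had one, beside 26.3% of 11417. In this list the share at carrier genes was the larger one in both classes, but these are few genes and the difference was not tested. The class was set at the most upstream TSS, whereas a promoter summit may lie at another. Slc25a46, with a GC content of 43.0%, was counted as not CpG-rich, but its promoter summit lay 233 bp from a TSS farther downstream. Slc25a34 had a CpG ratio of 0.0384 and still a promoter score of 21.1, whereas Slc25a31 had a ratio of 0.826 and Slc25a39 of 1.02 without a promoter summit.

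Of the short patterns capitalized in the sequences above, GGGCGG was in the promoter windows of 31 of 43 carrier genes (72.1%), beside 48.5% of all genes, and CCAAT in 23 (53.5%), beside 38.6%. Carrier genes with a promoter summit had GGGCGG at 28 of 32 (87.5%), beside 68.7% of all genes with one, and those without a promoter summit at 3 of 11 (27.3%), beside 30.7% of all genes without one. The pattern CCGGAAG was in 8 (18.6%), beside 12.2%, and TGCGCA in 5 (11.6%), beside 10.2%. Among genes with a promoter summit TGCGCA was in 3 of 32 carrier genes (9.38%), beside 16.4% of all genes. Among those without one it was in 2 of 11 (18.2%), beside 4.69%, so that these shares rest on few genes. AAGATGGC was in 3, TGACGTCA in 2 and TCAAGGTCA in 0, beside 3.22%, 2.52% and 0.370% of all genes. GGGCGG is made of G and C alone, and the median GC content was 63.3% in carrier promoters with a summit and 54.3% in those without, whose part in these shares was not tested.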

How the data were processed

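ATAC-seq libraries from BAT of 2 WT and 2 Dot1L-BKO mice were used, and the RNA-seq libraries were not analysed here. Per the methods, the authors used Partek Flow to align paired-end reads (BWA, mm10) and ran MACS2 in ATAC mode with cutoffs of 0.05 for the q-value and 2.0 for fold enrichment. The deposited values are the −log10 q-value of each peak at its summit, as a single column for the 4 libraries together, and which libraries served as control is not given in the sources used here. Handling of the transposase offset, of mitochondrial and of multi-mapped reads is likewise not given. Depth per library is unknown, so that no precision from read counts can be stated.

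Summits (column 3 of the BED file, counted from 1) were placed against curated RefSeq mRNAs of GRCm38.p6, the build of mm10, on autosomes. A summit could count for several genes. The carrier groups, comparison lists and genes described in full were chosen with earlier results of these data known. Counts cover all 43 members, of which 1 is not reported here by itself or plotted by name. Described in full were the highest promoter score of each group, the 8 members with most summits, members without a summit in a window, shared start regions and 8 carriers with known roles in brown fat. No test was run, since there is one list and genes are not replicates. Scores were compared only within the list, where 1942 summits share the score 4.16. Windows of 1001 bp around the carrier summits were searched for mitochondrial DNA by blastn 2.17.0 (e-value at most 1e-10). The placing of summits was tested on simulated data, in which 200 of 200 planted summits went to the right window. Computing was done in Python 3.11.15 (pandas 2.3.3, scipy 1.17.1) and plots were drawn with matplotlib 3.10.9. Alternatives changed the score minimum, the TSS window, the transcripts, the way summits were given to genes, the chromosomes and the merging of summits.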

Additional observations from a re-analysis of the deposited data

How the results depend on the processing

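No paired analysis was possible because every peak has 1 score and no value per library, which also kept single replicates from being left out. The number of carrier genes with a promoter summit ran from 22 (score of at least 10) to 34 (window of 5 kb) beside 32, with shares above those of all genes under each of the 9 alternatives. Within 10 kb it ran from 28 to 37, the latter with chromosome X included. In the gene body it fell from 27 to 11 with a score of at least 10, when fewer summits are left by construction, and 14.3% of all genes then had one. Leaving out the summit near Slc25a54 that matches the mitochondrial genome was chosen after seeing the data. Slc25a39 gained a promoter summit with predicted mRNAs and with a window of 5 kb, and Slc25a32 and Slc25a40 lost theirs when a summit counted only for the gene with the nearest TSS. With the downstream side of the window cut to 100 bp, 26 genes had a summit, and Slc25a44, Slc25a45 and Slc25a46 were among the 6 lost. The median promoter score ran from 11.5 to 16.4. Its interval, 9.78 to 27.7, is wide and the alternatives keep mostly the same genes, so that staying within it says little. Unknown depth limits what a missing summit can say.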

Other observations

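The 4 Slc25a genes on chromosome X with a curated mRNA were not among the members. Slc25a5, the ADP/ATP exchanger also known as Ant2, had 2 summits within 1 kb of its TSS, the nearest of them 198 bp downstream, and the highest score was 3.75. Slc25a14, Slc25a43 and Slc25a53 had no summit within 10 kb of a TSS or in the gene body.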
